A study of Rattus norvegicus with 16 samples.

Results

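The genes described here encode subunits of complexes II to V of the mitochondrial respiratory chain, with cytochrome c and a few genes whose array symbols carry the same prefixes. They were chosen by symbol alone: Sdha to Sdhd, Cycs, Cyc1, and every gene whose current RefSeq or array symbol starts with Uqcr, Cox4, Cox5, Cox6, Cox7, Cox8 or Atp5. Of 16922 genes on the array 50 met this rule, and 45 of them are subunits, isoforms or regulators of the complexes (4 in complex II, 9 in complex III with cytochrome c, 15 in complex IV and 17 in complex V). The other 5 are the pseudogenes Cox6c-ps1 and Atp5hl1 and the genes Dmac2, Dmac2l and Emc8, which the array lists as Atp5sl, Atp5s and Cox4nb. Uqcr10, Cox6b1 and Cox7a1 were not analysed here.

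The complexes pass electrons from the citric acid cycle to oxygen in the inner mitochondrial membrane. Complex II, succinate dehydrogenase, feeds electrons from succinate into the ubiquinone pool. Complex III hands them to the soluble carrier cytochrome c, and complex IV, cytochrome c oxidase, passes them to oxygen. The proton gradient built on the way drives complex V, the ATP synthase, which makes most of the ATP that neurons spend on ion pumping and transmission. Several subunits of complex IV exist as a common isoform and as a second form known from heart, muscle, lung or testis. The subunits described here are encoded in the nucleus. All subunits encoded in mitochondrial DNA, among them the catalytic core of complex IV, lie outside the rule, so the complexes are not covered in full.

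The animals were male LOU/C/Jall rats, an inbred strain, and 1 one-colour Agilent array was run per sample. The 16 arrays form 4 groups of 4: old hippocampus and young hippocampus, and old frontal cortex and young frontal cortex. Old rats were 26 months old. Young rats were 5 months old per the sample labels and 3 months old per the series design text, and which of these holds is not known here. No treatment or genetic change separates the groups, all animals share the strain and the sex, and anaesthesia with isoflurane preceded dissection in all. Arrays carry the letter codes of their titles, AF, AG, AH and AI in old and Y, Z, AA and AB in young rats. Each code occurs once in each region, and the labels do not say whether a code is 1 animal, so p-values measure the spread between these arrays.

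Values are log2 signals. Each array was shifted so that its 75th percentile was the same, and a gene was represented by its brightest probe. Of the 50 genes 47 passed the intensity minimum of 6.49 log2 in at least 1 group and were tested with limma among 10034 genes. The 3 others did not: Cox8c, the testis isoform of subunit 8, at 4.94 to 5.23 log2, and the single probes of Cox7c (5.41 to 6.23 log2) and Uqcrq (5.74 to 6.53 log2), a subunit of complex IV and one of complex III. The lowest signal in the table is 4.94 log2. The residual SD had a median of 0.165 log2 over genes, and the number of arrays limits the precision. Called genes are those with a limma p under 0.05 after Benjamini-Hochberg adjustment over all 10034.

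The regions carried their defining markers. Of the hippocampus list 4 of 7 genes were above the minimum, and Fibcd1 and Zbtb20, known from hippocampal pyramidal cells, were higher in hippocampus by 3.32 and 1.00 log2. Of the frontal cortex list 4 of 7 were above the minimum. Lamp5 and Fezf2, known from cortical neurons, were lower in hippocampus (-1.75 and -0.44 log2), whereas Rspo1 of the same list was higher there (0.65 log2). Lists of neighbouring tissue varied between arrays of the same group. Over the 12 of 14 choroid plexus markers above the minimum the mean, relative to each gene's 16-array mean, was -0.72 to 3.29 log2 in old and -0.63 to 2.99 in young hippocampus. Striatal markers (9 of 12) averaged 0.41 to 2.07 in old and -0.29 to 1.36 in young frontal cortex, with the highest value on old array AG.

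Age in frontal cortex was compared first, since most member genes lay lower in old tissue there. Atp5f1b, the catalytic beta subunit of the ATP synthase, was at 11.24, 11.12, 11.96 and 11.74 log2 on old arrays AF, AG, AH and AI, against 12.14, 12.07, 12.29 and 12.26 on young arrays Y, Z, AA and AB. All 4 old arrays lay below all 4 young ones, and old arrays AF and AG were the lowest. The mean was 11.51 ± 0.40 in old and 12.19 ± 0.10 in young frontal cortex (SD, n = 4 each). The difference of -0.67 ± 0.16 log2 (SE), 1.60-fold lower in old, missed the threshold (limma adjusted p = 0.0604). All 10 probes of the gene were lower in old cortex, by differences of -0.80 to -0.65 log2. Whether these 10 are repeats of 1 probe is not known here, so their agreement may repeat 1 measurement.

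Other subunits of the F1 head and the c ring also lay below 0, none of them called. Atp5f1c, the gamma subunit that forms the central shaft, was at 11.85, 11.42, 12.05 and 11.95 log2 in old (AF, AG, AH and AI) and 12.21, 12.16, 12.26 and 12.32 in young cortex (Y, Z, AA and AB). The 2 groups did not overlap, and the difference was -0.42 ± 0.12 log2 (SE, limma adjusted p = 0.0770). Atp5mc3, one of 3 genes for the membrane c ring, was at 13.56, 13.32, 13.54 and 13.56 log2 on the old arrays and 13.67 to 13.80 on the young ones, a difference of -0.26 ± 0.08 (adjusted p = 0.0837). Atp5f1a, the alpha subunit, differed by -0.22 ± 0.10 and the stalk subunit Atp5pb by -0.31 ± 0.13 log2. Of the 8 genes for the F1 head and the c ring 7 lay below 0 in frontal cortex, with a median of -0.18, and only Atp5f1e, the epsilon subunit, lay above (0.03 log2). This count rests on the brightest probes. For the delta subunit Atp5f1d 2 of 3 probes were higher in old cortex, up to 0.10. Of all 17 complex V genes tested, 13 were below 0 (median -0.09). Atp5if1, the inhibitor that binds the F1 head when the gradient fails, had a difference of 0.11 ± 0.11 log2.

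By their brightest probes 8 of 8 tested genes of complex III and cytochrome c lay below 0, with a median of -0.13 log2 and a range of -0.28 to -0.05. Among the other probes, 1 of 2 for Uqcrh and 1 of 4 for Uqcr11 lay above 0 (0.03 and 0.0009). Cycs, cytochrome c itself, was at 13.19, 13.14, 13.29 and 13.22 log2 in old and 13.52, 13.35, 13.51 and 13.51 in young cortex. These groups did not overlap, and young array Z stood 0.16 below its nearest neighbour. The difference was -0.26 ± 0.08 log2 (SE, limma adjusted p = 0.103). Uqcrc1, a core protein of the complex, was at 12.28, 12.01, 12.43 and 12.43 log2 in old and 12.45, 12.51, 12.68 and 12.56 in young cortex. Its groups just failed to meet, and the difference was -0.26 ± 0.10 log2 (adjusted p = 0.133). Uqcrfs1, the Rieske iron-sulfur protein, was at 12.03, 11.57, 12.06 and 12.03 log2 in old and 12.11 to 12.34 in young cortex (-0.28 ± 0.11).

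Complexes II and IV showed no common direction. In complex II Sdha, the flavoprotein that oxidises succinate, was at 11.97, 11.78, 12.27 and 12.14 log2 in old and 12.32, 12.08, 12.22 and 12.22 in young cortex. The groups overlapped, with a difference of -0.17 ± 0.10 log2 (limma adjusted p = 0.356) that was -0.28 to -0.08 with 1 array left out. Sdhc, one of 2 membrane anchors, went the other way, at 10.35, 10.26, 10.59 and 10.21 log2 in old and 10.32, 10.23, 10.04 and 10.07 in young cortex (0.18 ± 0.12, adjusted p = 0.362; 0.11 to 0.24 with 1 array left out). In complex IV 8 of 13 tested genes were below 0, with a median of -0.04 log2. Cox4i2, the isoform of subunit 4 known from lung, was at 9.48, 9.19, 9.17 and 9.28 log2 in old and 9.04, 9.21, 8.89 and 9.05 in young cortex, overlapping only through young array Z. Its difference was 0.23 ± 0.10 log2 (adjusted p = 0.171). Cox8a, the common isoform of subunit 8, was at 15.02, 14.91, 15.03 and 15.20 log2 in old and 15.16, 15.16, 15.26 and 15.29 in young cortex (-0.18 ± 0.08, adjusted p = 0.227). The pseudogene Cox6c-ps1 passed the intensity minimum through old frontal cortex alone, where array AF was at 7.48 log2 and the other 3 at 6.29 to 6.52, so its difference is not read. Cox4i1, the common isoform of subunit 4, had all 4 old arrays above all 4 young arrays but was not called (0.11 ± 0.07 log2, adjusted p = 0.340).

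**Figure D1:**
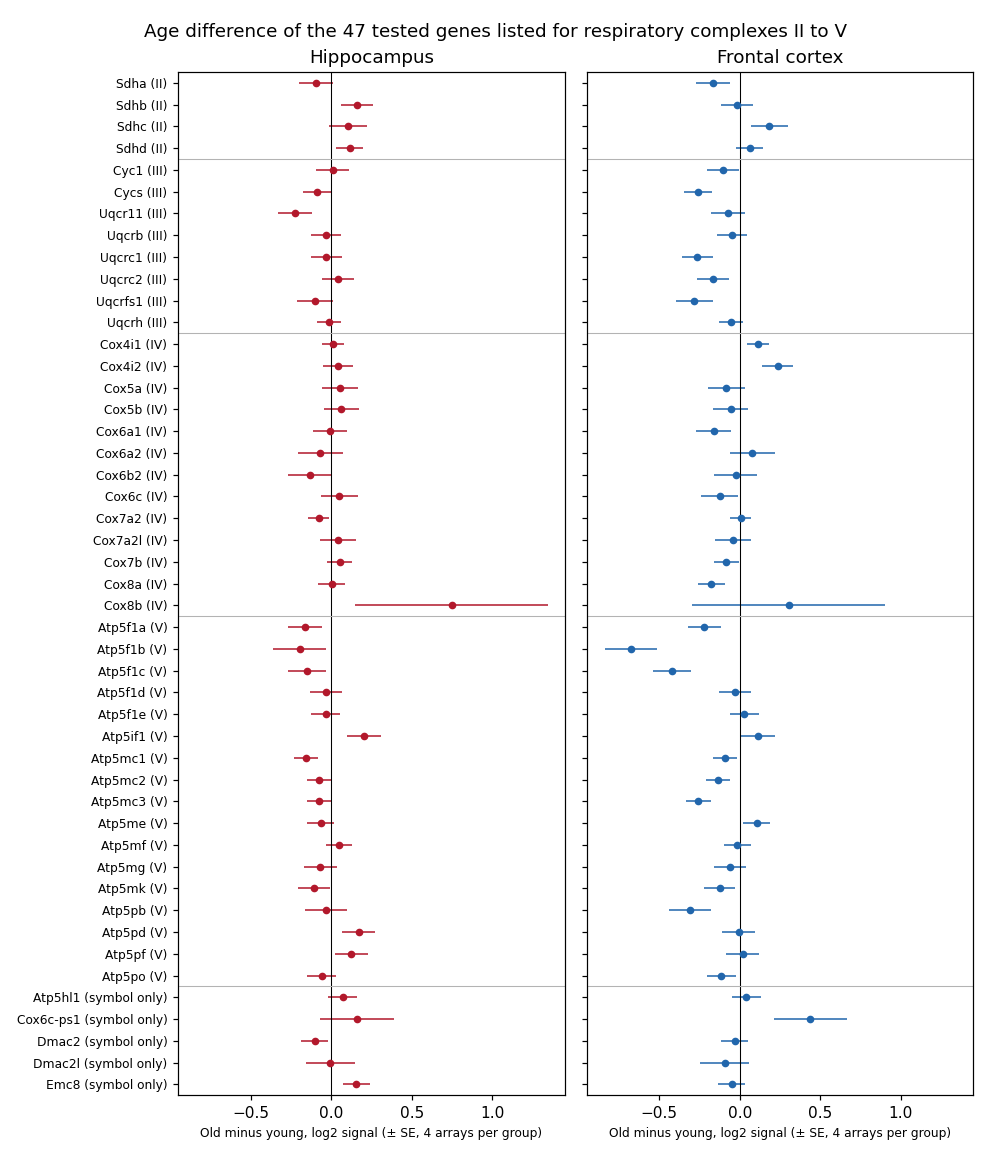
Old minus young difference in log2 signal (x axis) of the 47 tested genes, grouped by complex down the page, in hippocampus (left) and frontal cortex (right). Points are limma estimates and bars 1 SE, from 4 arrays per group. In frontal cortex all 8 genes of complex III lie left of 0 and Atp5f1b lies farthest left at -0.67, while in hippocampus Cox8b has the widest bar.

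Counted together, 0 of the 47 genes were called in frontal cortex by limma, where 0.967% of all tested genes were called. That background was 97 genes and was itself unstable, at 4 genes without young cortex array Z and 737 without old cortex array AI. At an unadjusted p under 0.05, 8 genes (17.0%) were lower in old cortex, against 11.9% of all genes, and 1 gene (Cox4i2) was higher, against 10.4% of all genes. Old and young arrays did not overlap with old lower in 7 genes (14.9%), against 6.0% of all genes: Atp5f1a, Atp5f1b, Atp5f1c, Atp5mc3, Cycs, Uqcrc1 and Uqcrfs1. With old higher they did not overlap in 1 gene, Cox4i1 (2.13%), against 682 of the 10034 genes tested. The median difference of the members was -0.058 log2 and 34 of 47 were below 0, beside a median of 0.001 and 49.8% below 0 over all genes.

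**Figure D2:**
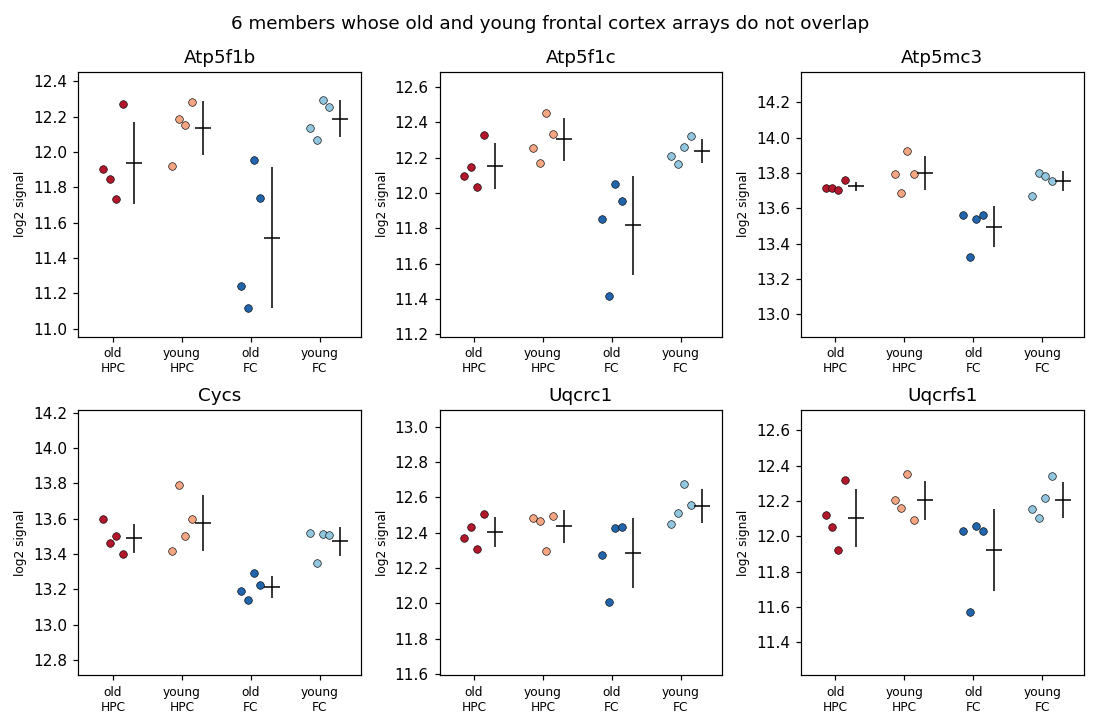
Log2 signal (y axis) of 6 genes on each array in old hippocampus, young hippocampus, old frontal cortex and young frontal cortex (HPC, hippocampus; FC, frontal cortex; x axis). Points are arrays, bars the mean ± SD of 4 arrays; y axes differ between panels. In each gene the 4 old frontal cortex arrays lie below the 4 young ones, and in hippocampus the ages overlap.

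Array AG of old frontal cortex was low for many members. It held the lowest of all 16 values for 18 of the 47 genes, and the members' median on it was -0.15 log2 from their own means, against -0.04 to -0.02 on the other 3 old and -0.001 to 0.06 on the 4 young cortex arrays. Without this array 31 of 47 genes were still below 0 (median -0.044), but the count at an unadjusted p under 0.05 was 4 of 47, or 8.51%, where 7.58% of all genes were lower. Without it the difference of Atp5f1b was -0.54 log2 (limma adjusted p = 0.153). Without codes AF and AG in both regions it was -0.34 (adjusted p = 0.503), that of Atp5f1c was -0.24 and that of Uqcrc1 -0.12 (-0.17 without array AG alone). Other lists moved between the same groups. The microglia list (12 of 12 genes) averaged -0.01 to 0.24 log2 in old and -0.19 to -0.07 in young cortex, and myelin markers (9 of 10) -0.11 to 0.59 in old and -0.79 to -0.02 in young cortex. Meningeal and mural markers (13 of 14) averaged -0.68 to 0.09 in old and -0.15 to 1.16 in young cortex, erythrocyte markers (4 of 10) -1.26 to 1.77 in old and -0.36 to 0.13 in young cortex, and neuronal markers (11 of 12) -0.10 to 0.03 in old and -0.01 to 0.12 in young cortex. Among the cortex arrays, old array AG had the highest striatal mean (2.07), the highest myelin mean (0.59) and the lowest erythrocyte mean (-1.26). The part of these lists in the member differences was not tested. In tissue RNA, fewer cells of a type and less RNA per cell cannot be told apart.

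**Figure D3:**
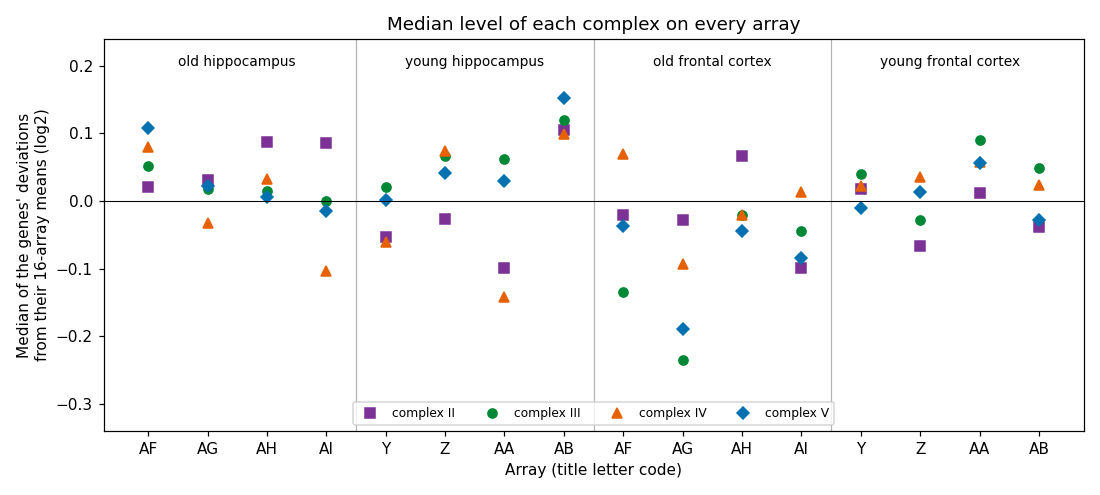
Median deviation of the genes of each complex from their own 16-array means (y axis, log2) on every array (x axis, by letter code), with groups separated by vertical lines. Complexes III and V are lowest on old frontal cortex array AG (-0.24 and -0.19), and all 4 complexes lie above 0 on young hippocampus array AB.

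Age in hippocampus was compared in the same way. No member was called by limma (0 of 47, where 0.0399% of all genes were called), and 0 had an unadjusted p under 0.05, where 6.77% of all genes did. The median was -0.014 log2 with 26 of 47 below 0, beside 0.010 and 47.1% over all genes. In 2 members (4.26%) the 2 ages were apart on all arrays, against 4.57% of all genes in either direction. Both were lower in old. Uqcr11, a small accessory subunit of complex III, was at 14.30, 14.53, 14.61 and 14.43 log2 in old and 14.63, 14.65, 14.76 and 14.72 in young hippocampus (-0.22 ± 0.11, limma adjusted p = 0.729). Its probes disagreed, since 3 of 4 were lower and 1 lay at 0.004. Atp5mc1, a c ring gene, was at 14.03, 14.08, 14.151 and 14.13 log2 in old and 14.29, 14.152, 14.23 and 14.35 in young hippocampus, apart by the last digit given (-0.16 ± 0.07, adjusted p = 0.729).

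Among the other genes with the smallest p of their complex, all groups overlapped in hippocampus. The iron-sulfur subunit Sdhb was at 11.34, 11.47, 11.57 and 11.40 log2 in old and 11.16, 11.31, 11.13 and 11.53 in young tissue (0.16 ± 0.10, limma adjusted p = 0.789). The anchor subunit Sdhd was at 12.42, 12.35, 12.55 and 12.49 in old and 12.42, 12.35, 12.13 and 12.44 in young tissue (0.11 ± 0.08, adjusted p = 0.805). Its probes, which may be repeats of 1 probe, disagreed. Of these, 7 of 10 were lower in old, with a range of -0.12 to 0.13, so no direction is given for Sdhd. Young array AA was the lowest of the 8 hippocampus arrays for Sdhb and Sdhd. Cycs was at 13.60, 13.46, 13.50 and 13.40 in old and 13.42, 13.79, 13.50 and 13.60 in young tissue (-0.09 ± 0.08, adjusted p = 0.859), and the difference was -0.14 to -0.017 with 1 array left out. Cox7a2, the common isoform of subunit 7a, was at 12.54, 12.54, 12.59 and 12.48 in old and 12.67, 12.63, 12.55 and 12.62 in young tissue (-0.08 ± 0.06, adjusted p = 0.826), while 2 of its 3 probes were higher in old, up to 0.08. Atp5if1 was at 13.98, 13.74, 13.81 and 13.53 in old and 13.38, 13.70, 13.48 and 13.68 in young tissue (0.20 ± 0.11, adjusted p = 0.761), and its 2 probes disagreed in sign. By their brightest probes the 8 genes of the F1 head and c ring were all below 0 here, by -0.20 to -0.03 log2 with a median of -0.11. Among their probes 1 of 3 for Atp5f1d, 2 of 4 for Atp5mc2 and 1 of 4 for Atp5mc3 were higher in old tissue. Of the complex V genes 13 of 17 were below 0.

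The age differences of the 2 regions were then set against each other. With the frontal cortex difference subtracted from the hippocampus one, 33 of 47 members were above 0 (median 0.075 log2, beside 0.018 over all genes). None of the 47 was called by limma, as was none of the 10034 genes (0%), and at an unadjusted p under 0.05 there were 0 members where 2.65% of all genes passed. Atp5f1b had the largest value among members, 0.48 ± 0.23 log2 (adjusted p = 0.999). A difference between the regions in the effect of age was therefore not shown for any member.

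Region was compared over both ages. Limma called 4 members higher in hippocampus (8.51%, against 14.4% of all genes) and 3 lower (6.38%, against 14.4% of all genes). Cox6a2, the heart and muscle isoform of subunit 6a, was at 6.42 to 7.16 log2 in hippocampus (median 6.64, n = 8) and 7.35 to 7.88 in frontal cortex (median 7.53, n = 8). It was the only member whose regions did not overlap (2.13%, against 8.73% of all genes). The difference was -0.85 ± 0.10 log2 (limma adjusted p = 5.08e-06). No fold is given, since the Cox6a2 signal in hippocampus lay close to the intensity minimum. Both of its probes gave a difference of this size (-0.85 and -0.82). Its common partner Cox6a1 was at 16.11 to 16.54 log2 in hippocampus and 15.998 to 16.50 in frontal cortex, with a difference of -0.005 ± 0.08.

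Cox4i2 was lower in hippocampus as well, at 8.69 to 9.01 log2 (median 8.81) against 8.89 to 9.48 in frontal cortex (median 9.18). The difference was -0.32 ± 0.07 log2 (limma adjusted p = 0.00175). Endothelial markers (7 of 9 above the minimum) averaged -0.38 to 0.07 log2 over the 8 hippocampus arrays and -0.04 to 0.31 over the 8 frontal cortex arrays. In the meningeal and mural list Vtn and Rgs5, known from pericytes, were lower in hippocampus (-0.56 and -0.40 log2, adjusted p = 0.0157 and 0.0108). Pdgfrb of that list was not called (-0.26, adjusted p = 0.0692). Dcn and Igf2 of the list were higher in hippocampus (0.89 and 0.98, adjusted p = 0.0219 and 0.266). The part of these markers in the Cox4i2 difference was not tested. Its common partner Cox4i1 was at 15.34 to 15.53 log2 in hippocampus and 15.43 to 15.68 in frontal cortex (-0.09 ± 0.05, adjusted p = 0.162). The testis isoform Cox6b2 was at 10.08 to 10.87 log2 in hippocampus and 10.49 to 10.78 in frontal cortex (-0.01 ± 0.10), and Cox7a2 at 12.48 to 12.67 in hippocampus and 12.59 to 12.72 in frontal cortex (-0.07 ± 0.05). Dmac2, a factor known for the assembly of complex I that the array lists under an ATP synthase symbol, was at 8.22 to 8.46 log2 in hippocampus and 8.39 to 8.75 in frontal cortex (-0.24 ± 0.06, adjusted p = 0.00498).

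**Figure D4:**
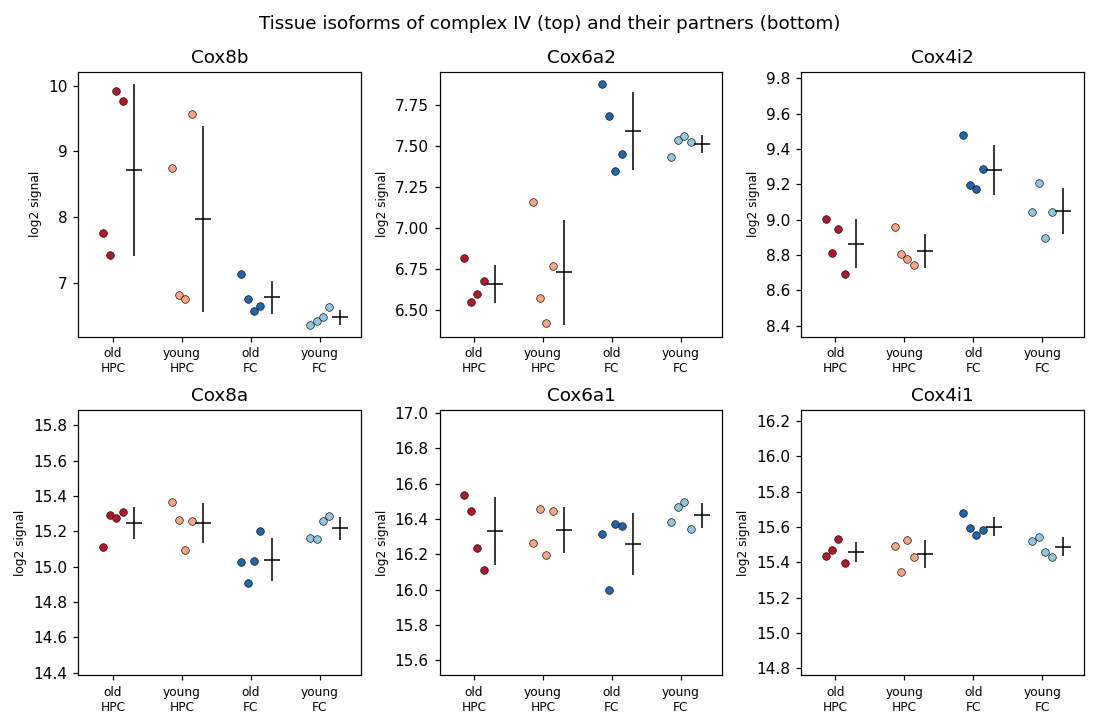
Log2 signal (y axis) of 3 tissue isoforms of complex IV (top row) and their common partners (bottom row) on each array in the 4 groups (HPC, hippocampus; FC, frontal cortex; x axis). Points are arrays, bars the mean ± SD of 4 arrays; y axes differ between panels. Cox6a2 is lower on all 8 hippocampus arrays, and Cox8b is high on 4 of them, 2 of each age.

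Cox8b, the heart and muscle isoform of subunit 8, had the largest region difference of the members and the largest spread. It was at 7.76, 7.43, 9.92 and 9.77 log2 on old hippocampus arrays AF, AG, AH and AI and at 8.75, 6.81, 6.75 and 9.57 on young hippocampus arrays Y, Z, AA and AB. In frontal cortex it stayed between 6.36 and 7.14. Hippocampus arrays AH, AI, Y and AB were therefore high, Z and AA lay within the cortex range, and AF and AG above it. The same 4 arrays were high for the choroid plexus list, the epithelium that makes cerebrospinal fluid, at 2.20, 3.29, 2.58 and 2.99 log2, against -0.72 to 0.25 on the other hippocampus arrays and -1.30 to -0.87 on the cortex arrays. Ttr, the transthyretin gene of that list, averaged 15.77 log2 in old and 14.86 in young hippocampus, and 11.01 in old and 10.33 in young frontal cortex.

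The difference of Cox8b between hippocampus and frontal cortex was 1.72 ± 0.42 log2 (limma adjusted p = 0.00582). The cortex signal lay at the intensity minimum, with means of 6.78 in old and 6.47 in young cortex, so no fold is given. Without the 4 high hippocampus arrays it was 0.56 ± 0.11 log2 (limma adjusted p = 0.00254), an alternative chosen after seeing the data. Leaving out the highest Cox8b values itself narrows the spread, so this p is not set against the one above. Between ages in hippocampus the Cox8b difference was 0.75 ± 0.60 log2 (adjusted p = 0.821), and 0.22 to 1.28 when 1 array was left out. In frontal cortex, where the choroid list was low on every array, the age difference was 0.30 ± 0.60; this SE pools the spread of all 4 groups, and the SD within the cortex groups was 0.25 in old and 0.11 in young. Its partner Cox8a was at 15.09 to 15.37 log2 in hippocampus and 14.91 to 15.29 in frontal cortex (0.12 ± 0.06, adjusted p = 0.15).

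**Figure D5:**
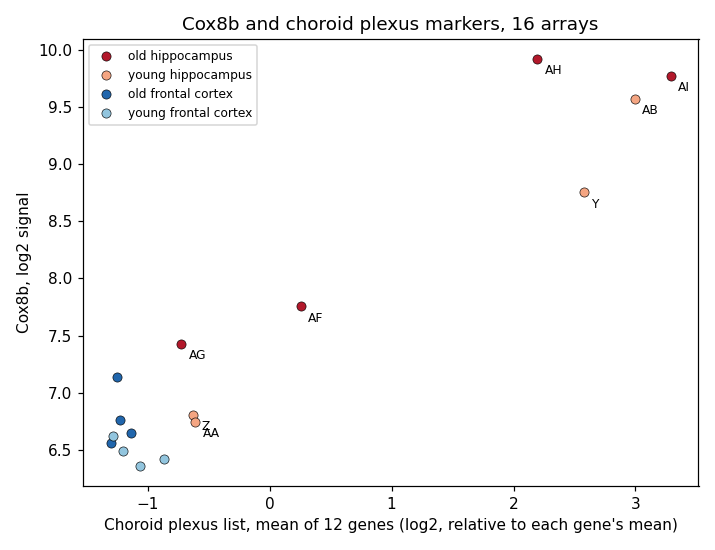
Cox8b log2 signal (y axis) against the mean of 12 choroid plexus markers relative to their own means (x axis, log2) on 16 arrays, coloured by group, with letter codes at the hippocampus arrays. Arrays AH, AI, Y and AB lie at the upper right (Cox8b 8.75 to 9.92), and the other 12 arrays at the lower left (6.36 to 7.76).

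The 3 remaining genes called higher in hippocampus differed by less. Atp5mc1 was at 14.03 to 14.35 log2 in hippocampus (median 14.15) and 13.72 to 14.04 in frontal cortex (median 13.94), a difference of 0.26 ± 0.05 (limma adjusted p = 0.00117), and the regions overlapped by 0.01 only. Cycs was at 13.40 to 13.79 log2 in hippocampus and 13.14 to 13.52 in frontal cortex (0.19 ± 0.06, adjusted p = 0.0254). Atp5mc2, another c ring gene, was at 14.43 to 14.62 log2 in hippocampus and 14.21 to 14.56 in frontal cortex (0.15 ± 0.05, adjusted p = 0.0443), and it was called in 10 of 29 alternatives only. Over complex V 14 of 17 genes were above 0 in this comparison, with a median of 0.10 log2.

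The promoters of these genes were read from RefSeq (GRCr8), where 38 of the 45 subunit genes had one. Each window holds 250 bases before and 50 bases after the start listed for the promoter, on the gene's strand. For several genes that start is not the outer end of the gene's listed span. The windows of Cox6a2 and Uqcrfs1, for example, lie wholly inside the span. Genes of the respiratory chain are known targets of NRF1, GABPA and YY1, which bind near the start of many nuclear mitochondrial genes. The core letters searched, on both strands, were GCGCANGC for NRF1, CCGGAAG for GABPA and AAGATGGC for YY1, with TATAAA for the TATA box. NRF1 matches on the 2 strands overlap in Atp5mc2, Atp5me and Atp5po, so promoters and not matches were counted. The NRF1 letters stood in 12 of 38 member promoters (31.6%) and in 12.2% of 19005 promoters of protein-coding genes. The GABPA letters stood in 14 of 38 (36.8%) and 11.2%, and the YY1 letters in 7 of 38 (18.4%) and 3.92%. At least 1 of the 3 stood in 25 of 38 (65.8%) and in 23.6% of all promoters. Member promoters also held more CpG pairs, with a median of 20.5 against 12 over all promoters. The NRF1 and GABPA letters contain such a pair, and the part of CpG content in these shares was not tested. A match is a description and not a binding site.

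The sequences below set Cox8b and Cox6a2, isoforms with a region difference, beside the common isoform Cox8a (Cox4i2 had no matched promoter), with 2 genes whose old and young frontal cortex arrays did not overlap. Capitals mark the motifs searched; a promoter with no capitals holds none of them. They are Cox8a (chr1:213833574-213833873, minus strand), Cox8b (chr1:205408224-205408523, minus), Cox6a2 (chr1:192219667-192219966, minus), Cycs (chr4:80984718-80985017, minus) and Atp5f1b (chr7:1099808-1100107, plus).
Cox8a: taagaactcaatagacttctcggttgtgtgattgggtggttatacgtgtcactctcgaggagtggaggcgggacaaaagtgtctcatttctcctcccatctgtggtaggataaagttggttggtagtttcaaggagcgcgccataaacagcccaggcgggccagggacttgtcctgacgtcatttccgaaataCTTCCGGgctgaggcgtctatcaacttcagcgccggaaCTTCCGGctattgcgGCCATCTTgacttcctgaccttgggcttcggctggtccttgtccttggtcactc
Cox8b: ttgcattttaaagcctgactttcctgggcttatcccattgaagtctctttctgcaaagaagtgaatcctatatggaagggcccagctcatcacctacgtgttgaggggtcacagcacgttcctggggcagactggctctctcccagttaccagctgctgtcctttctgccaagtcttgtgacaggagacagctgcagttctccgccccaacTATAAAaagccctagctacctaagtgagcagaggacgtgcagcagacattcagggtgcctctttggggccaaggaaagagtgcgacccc
Cox6a2: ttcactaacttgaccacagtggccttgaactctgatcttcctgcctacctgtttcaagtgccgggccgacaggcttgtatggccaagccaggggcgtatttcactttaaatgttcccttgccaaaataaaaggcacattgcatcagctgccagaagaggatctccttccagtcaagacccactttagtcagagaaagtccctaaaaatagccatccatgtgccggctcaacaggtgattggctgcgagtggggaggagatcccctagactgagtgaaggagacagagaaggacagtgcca
Cycs: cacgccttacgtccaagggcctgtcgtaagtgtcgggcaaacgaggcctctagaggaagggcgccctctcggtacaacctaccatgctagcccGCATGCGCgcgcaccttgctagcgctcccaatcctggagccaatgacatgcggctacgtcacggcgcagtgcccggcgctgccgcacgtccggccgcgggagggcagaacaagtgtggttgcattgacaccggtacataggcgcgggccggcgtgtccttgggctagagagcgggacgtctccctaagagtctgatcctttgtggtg
Atp5f1b: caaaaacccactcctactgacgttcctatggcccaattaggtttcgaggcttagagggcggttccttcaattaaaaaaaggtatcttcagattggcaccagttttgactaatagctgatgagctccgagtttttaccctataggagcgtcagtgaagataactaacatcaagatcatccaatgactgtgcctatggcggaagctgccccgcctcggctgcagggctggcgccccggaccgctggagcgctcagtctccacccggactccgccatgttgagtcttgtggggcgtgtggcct

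The common isoform Cox8a holds GABPA letters at 2 places and YY1 letters at 1. Cox8b holds none of the 3 but holds the TATAAA letters, as 13.1% of all promoters do, and it has 5 CpG pairs in 300 bases where Cox8a has 16. Cox6a2 also has 5 CpG pairs and none of the letters, in a window inside the gene's listed span (192218970 to 192221188). The median number of CpG pairs was 20.5 over the 38 member promoters and 12 over the 19005 promoters of protein-coding genes. Cycs holds the NRF1 letters and has 30 CpG pairs. Atp5f1b holds none of the 4 motifs, nor do Uqcrfs1 and Atp5pb, whereas Atp5f1c, Atp5mc3 and Uqcrc1 hold the NRF1 letters. In the windows read, the members that were low in old frontal cortex therefore did not share 1 motif. Cox4i1 and Emc8 start head to head on chromosome 19, and their 300-base windows overlap. Emc8, a subunit of a membrane protein insertase, had age differences of 0.16 ± 0.08 in hippocampus and -0.05 ± 0.08 log2 in frontal cortex, and Cox4i1 of 0.01 ± 0.07 in hippocampus and 0.11 ± 0.07 in frontal cortex.

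Genes of related pathways were counted in the same fit. In frontal cortex 13 of 16 tested citric acid cycle genes were below 0 in old tissue (median -0.16 log2, 0 called). Pdhb, the beta subunit of pyruvate dehydrogenase, differed by -0.51 ± 0.12 (limma adjusted p = 0.0558), the malate dehydrogenase Mdh2 by -0.52 ± 0.13 (0.0653) and the succinyl-CoA ligase subunit Sucla2 by -0.27 ± 0.10 (0.151). Of 38 complex I subunits 25 were below 0 (median -0.04) and 1 was called, where 0.967% of all genes were called. It was the iron-sulfur subunit Ndufs8, with a difference of -0.42 ± 0.09 log2 (limma adjusted p = 0.0383). Ndufs8 was not followed through the alternatives given below. The median deviation of complex I subunits was -0.15 on old cortex array AG, and -0.06 to 0.04 on old cortex arrays AF, AH and AI. Ndufa9 and Ndufv2 had differences of -0.37 ± 0.10 and -0.26 ± 0.08. Of 16 glycolytic genes 10 were below 0 and 0 were called, with Aldoa, an aldolase, at -0.51 ± 0.13 (0.0654), Ldha at -0.25 ± 0.09 and Hk1 at 0.20 ± 0.09.

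The assembly factors and regulators were evenly divided. Of 26 assembly factors 12 were below 0 and 0 were called in frontal cortex, with Coa5, a factor for complex IV, at -0.58 ± 0.17 log2 (limma adjusted p = 0.0890), Cmc1 at 0.22 ± 0.08 and Bcs1l, which inserts the Rieske protein into complex III, at -0.31 ± 0.12. Of 13 regulators of mitochondrial biogenesis 6 were below 0 and 0 were called, with Yy1 at -0.33 ± 0.13 (0.167), Gabpb1 at -0.26 ± 0.11 (0.182) and Nrf1 at 0.18 ± 0.11 (0.336). Of 11 carriers and porins 6 were below 0, with the ADP/ATP carrier Slc25a5 at -0.34 ± 0.11 (0.0962). In hippocampus 0 genes of any of these 6 lists were called between ages. Between regions, 2 of 13 regulators were called, both higher in hippocampus, and of the 11 carriers 1 was called higher and 1 lower, where 14.4% of all genes were called each way. Gabpa was higher in hippocampus by 0.30 ± 0.08 and Tfam, the packaging factor of mitochondrial DNA, by 0.17 ± 0.05 log2 (adjusted p = 0.00749 and 0.0255), and the uncoupling protein Ucp2 was higher by 0.66 ± 0.10 (adjusted p = 7.59e-05). The carrier Slc25a14 was lower (-0.21 ± 0.06, adjusted p = 0.0142).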

How the data were processed

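The values are log2 signals as deposited by the authors in the series value table, 1 column per array, joined to the labels by sample. Scans were quantified with Agilent Feature Extraction, per the submitters' processing notes; the sources used here give neither the background correction nor the normalization. The log2 scale was read from the range (4.94 to 17.77), and all columns share a median of 6.77. The raw table's 16 columns match no sample by name and were not used.

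Of 62976 spots, 45904 are probes with a listed gene. Symbols were updated to RefSeq (GRCr8) by accession (39826 probes) or unique synonym (1024), and 5054 kept the array's symbol. Arrays were aligned on the 75th percentile of gene probes (9.42 to 9.44). A gene is its probe of highest mean, kept when its highest group mean exceeds the 40th percentile of probe means (6.49). Files do not say which spots repeat a probe, so the mean of all probes is an alternative.

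R 4.3.3 with limma 3.58.1 fitted 4 group means to 16 arrays (residual df 12, prior df 4.07). Benjamini-Hochberg adjustment of the two-sided moderated p ran over 10034 genes, separately for old minus young in each region, the hippocampus value of this minus the cortex value, and hippocampus minus cortex at both ages. The procedure was tested on simulated data.

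The members and lists were chosen with earlier results of these data known, so a list has counts and a median and no test. Named with full values are the 2 members of each complex with the smallest p in each age comparison, up to 8 called members with the largest region difference, and the isoform pairs of complex IV; of each pathway list, up to 3 members with the smallest p. Other members named (those that did not overlap, the F1 head and c ring, Atp5mc3, Uqcrfs1, Atp5pb, Emc8) were chosen after their values were seen. Promoters came from a RefSeq table of GRCr8. Protein sequences were not used here.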

Additional observations from a re-analysis of the deposited data

Results flagged for a closer look

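Among 21 named genes in 4 groups of 4 arrays, 84 sets in all, 4 held an array whose gap to its nearest neighbour, as a share of the group's whole range, exceeded Dixon's critical value, and chance gives about 1 in 20. Cox6a1 on old frontal cortex array AG was at 15.998 log2, with the other 3 at 16.31 to 16.37. This is the array that held the lowest value for 18 of 47 members. Cycs on young frontal cortex array Z was at 13.35, below 13.51 to 13.52 on the others. Atp5if1 on young frontal cortex array AB was at 13.67, below 13.81 to 13.83. Uqcrc1 on young hippocampus array AA was at 12.30, below 12.47 to 12.50.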

How the results depend on the processing

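The alternatives were the values as deposited, a median shift, quantile normalization, no filter and a stricter filter (60th percentile), the mean of all probes, trend and robust variances, a fit to 1 region's 8 arrays, array weights, the title code as replicate block, single arrays left out, 3 fixed sets of arrays left out (hippocampus AB and AI, frontal cortex Y and Z, codes AF and AG), and, added after seeing the data, hippocampus arrays AH, AI, Y and AB left out. No member was called for age in hippocampus under any of 30 alternatives, nor for the difference of age effects under any of 29. Members called for age in frontal cortex numbered 1 (Atp5f1b) with the mean of all probes and 1 (Atp5f1b) with trend and robust variances, and 0 to 2 with 1 array left out: Atp5f1b without old hippocampus array AI, and Atp5f1b and Atp5f1c without old frontal cortex array AH or AI. Members called for region numbered 5 to 10. Cox8b, Cox4i2 and Atp5mc1 were called in 29 of 29 alternatives, Cox6a2 in the 28 that kept it, Dmac2 in 28 of 29 and Cycs in 25 of 29. For Cox8b 1 of the 29 left out hippocampus arrays AH, AI, Y and AB, where it was highest. The median of the members in frontal cortex stayed between -0.093 and -0.044, and that in hippocampus between -0.073 and 0.035. The median of the difference of age effects was 0.137 without hippocampus arrays AB and AI and 0.0078 without codes AF and AG, against 0.075; the cause was not tested.

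The differences of 4 genes changed sign, and none of them was called. Cox6a1 between regions was 0.00051 with the values as deposited, 0.018 with array weights, 0.014 without hippocampus arrays AB and AI, 0.068 without AH, AI, Y and AB, and -0.048 to 0.032 with 1 array left out. Cox6b2 between regions was 0.044, 0.040, 0.034 and -0.063 to 0.067 in the last 4 of these. With the mean of all probes the hippocampus age difference was -0.026 for Sdhd (0.11 by its brightest probe) and 0.0067 for Cox7a2 (-0.08), since most of their other probes point the other way.

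Over all genes tested, deviations of the same code in both regions had correlations of -0.17 to 0.28, and 3 of 8 codes matched their own code best, so codes were not treated as pairs. The erythrocyte list did run alike by code, at 1.59 in hippocampus and 1.77 in frontal cortex for AF and -0.88 and -1.26 for AG, and whether a code is 1 animal is not known here. With the replicate block (correlation 0.051) the members called were 0 and 0 for age in hippocampus and frontal cortex, 0 for the difference and 7 for region, as without it.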
